A study of Mus musculus with 6 samples.

Results

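ATF4, a transcription factor of the amino acid response, and 9 genes of its programme were followed in mouse liver with and without p14. The 10 genes were Atf4, Atf5, Asns, Trib3, Ddit3, Chac1, Fgf21, Psat1, Phgdh and Mthfd2, taken by name as known genes of this response, out of 18193 genes that had a probe set with a single gene symbol. All of the animals were male C57BL/6 mice aged 6 weeks. In 3 of them p14 had been deleted conditionally in the liver (KO 1 to KO 3), and 3 were controls labelled p14 WT (WT 1 to WT 3). Each liver was hybridised to its own Affymetrix array. p14 is the product of Lamtor2. The promoter that drives the deletion, and whether the controls had a floxed allele, was not stated in the labels.

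ATF4 is made when the translation factor eIF2alpha is phosphorylated, by the kinase GCN2 when uncharged tRNA accumulates and by PERK when the endoplasmic reticulum is stressed. Much of this control lies in translation of the Atf4 message, so the mRNA level does not measure the protein. The TORC1 kinase, which the Ragulator complex with p14 helps to recruit to lysosomes, also raises ATF4 protein. ATF4 pairs with C/EBP proteins on C/EBP-ATF response elements and drives genes for amino acid synthesis, amino acid import and tRNA charging, together with stress regulators such as CHOP (Ddit3).

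The core letters of this element, TGATGNAA, were searched on both strands in RefSeq promoter windows of build GRCm38.p6, which reach from 250 bases before to 50 bases after a gene's start. All 10 genes had a window, and 4 held a match. Among all 27025 genes with such windows 4.51% did, as did 2.8% of the 8188 genes that also passed the expression filter. They are shown because ATF4 is known to bind this kind of element. The match stands in capitals and the stretch is read along the gene's own strand. Asns has the motif as written from 23 bases before its start, in the stretch chr6:7693214-7693243 (minus strand). In the others the capitals are the reverse complement. The Chac1 match begins 193 bases before the start (chr2:119351038-119351067, plus strand), and the Fgf21 match 139 bases before it (chr7:45615611-45615640, minus strand). The Trib3 match begins at base 15 counted from the start (chr2:152344028-152344057, minus strand).
Asns: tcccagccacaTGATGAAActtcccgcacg
Chac1: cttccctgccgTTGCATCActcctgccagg
Fgf21: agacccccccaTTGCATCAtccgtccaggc
Trib3: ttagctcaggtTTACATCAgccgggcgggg
The windows of Atf4, Atf5, Ddit3, Psat1, Phgdh and Mthfd2 held no such letters, which says nothing about elements outside them. A match is a description of sequence. Asns and Fgf21 hold one and lay near the bottom of the measured range. Trib3 and Chac1 hold one and gave higher values, though the WT values of Chac1 nearly coincide and may lie at a lower limit of its probe set.

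No member passed the test between KO and WT livers. Of the 10 genes, 6 reached log2 values of 4 or more on 3 or more arrays, the filter used for testing, and 0 of these passed an adjusted p under 0.05 in limma. At an unadjusted p under 0.05 there were 2, Ddit3 lower and Chac1 higher in KO. Over all 10009 genes tested, 0.17% passed the adjusted threshold and 14.5% the unadjusted one, 4.32% as higher and 10.1% as lower in KO. By the sign alone 3 of the 6 were higher and 3 lower, beside 41.6% and 58.4% of all genes. The median difference of the 6 genes, KO minus WT, was -0.09 on the log2 scale, beside -0.04 over all genes. The remaining 4 genes, Asns, Psat1, Mthfd2 and Fgf21, lay below 4 on every array. The number of arrays limits the precision of every value here. The limma p-values set each difference against the spread between mice of the same group, moderated over all genes tested.

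**Figure D1:**
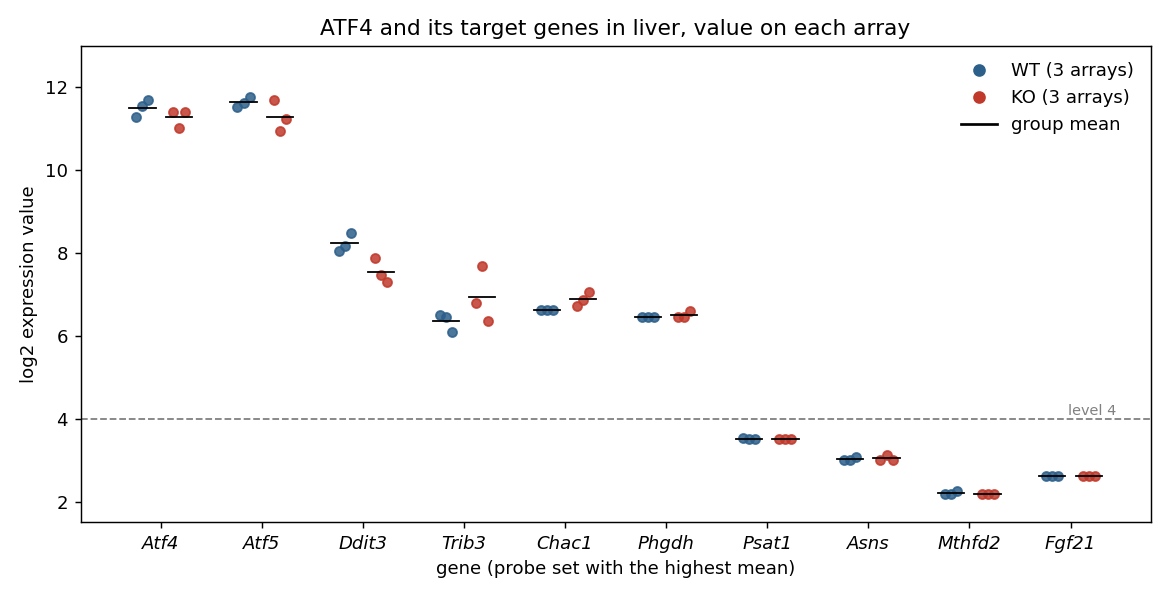
Log2 expression value (vertical axis) of each of the 10 genes on each array, WT in blue and KO in red, with the group mean as a bar and level 4 dashed. Atf4, Atf5, Ddit3, Trib3, Chac1 and Phgdh lie above 4, and Psat1, Asns, Mthfd2 and Fgf21 lie below 4 on all 6 arrays.

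Lamtor2, the targeted gene, measured 10.08, 10.19 and 10.11 on the KO arrays and 11.32, 11.29 and 11.35 on the WT arrays, a fall of 1.19 (limma adjusted p = 0.0104), where 0.15% of all genes were called as lower. It was not called without KO 2, WT 1, WT 2 or WT 3 (limma adjusted p = 0.0505 to 0.114), while the difference stayed between -1.23 and -1.17 with any single array left out. With its probe sets averaged, which brings in a dim one, the difference was -0.72 (limma adjusted p = 0.0282). The livers were hepatocyte tissue by their markers, whose mean level lay at 15.32 to 15.36 in KO and 15.31 to 15.41 in WT. Kupffer cell and macrophage markers were lower in KO for 10 of 10 genes, with means of 8.43 to 9.75 against 10.04 to 10.14 and a median difference of -0.89. Endothelial markers were lower for 7 of 8, 1 of them called, with means of 8.46 to 8.93 against 9.11 to 9.29. Stellate cell markers were lower for 6 of 7, with overlapping means of 8.73 to 9.03 and 8.97 to 10.02. The value of 10.02 was on WT 2, while WT 1 and WT 3 stood at 8.97 and 9.17. The 2 neutrophil markers past the filter were higher, with a median difference of 0.39. Neutrophil means, which include Mpo below 4 on every array, overlapped. They were 4.94, 3.89 and 4.32 in KO and 4.19, 4.12 and 4.06 in WT. In tissue RNA, fewer cells of a type and less RNA per cell cannot be told apart. For the 18S rRNA controls the KO arrays averaged 0.803 above the WT arrays. The groups did not overlap, at 8.501 to 9.245 in KO and 7.766 to 8.442 in WT. WT 2 alone held skeletal muscle transcripts, with a marker mean of 11.57 against 2.49 to 2.78 on the other arrays. The part of these shifts in the results that follow was not tested.

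Ddit3 encodes CHOP, a factor that ATF4 induces and that acts with it under prolonged stress. Its brighter probe set (Entrez gene 13198) measured 7.89, 7.46 and 7.30 on KO 1, KO 2 and KO 3, and 8.06, 8.18 and 8.48 on WT 1, WT 2 and WT 3. Every KO array lay below every WT array, a separation seen in 20.5% of all genes tested, and in 1400 of the 10009 with KO below WT. The log2 group means were 7.55 ± 0.31 for KO and 8.24 ± 0.22 for WT (SD, n = 3 per group), a difference of -0.69 with a standard error of 0.19 and a 95% interval from -1.16 to -0.23, or a 0.619-fold KO signal. In limma the unadjusted p was 0.0113 and the adjusted p 0.25. The exact permutation p was 0.1, the smallest that 3 arrays against 3 allow. Of the genes tested, 4.93% had a larger absolute difference.

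A second Ddit3 probe set did not show this. It lay between 3.29 and 5.21, reached 4 on 3 of the 6 arrays, and differed by 0.14 with a 95% interval from -1.31 to 1.58. With the mean of both probe sets the difference was -0.28 (limma adjusted p = 0.742). The part of the lower macrophage and endothelial markers in the Ddit3 difference was not tested.

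Atf4 itself was bright in both groups and overlapped between them. Its brightest probe set (Entrez gene 11911) measured 11.41, 11.01 and 11.40 in KO and 11.28, 11.54 and 11.69 in WT. The difference was -0.23 with a standard error of 0.16 and a 95% interval from -0.62 to 0.16 (limma adjusted p = 0.518). The interval spans lower as well as higher levels in KO and does not show that the groups were equal. The second probe set measured 8.91 to 9.46 in KO and 9.20 to 9.53 in WT and differed by -0.10, and the third stayed between 3.49 and 3.57. KO 2 gave the lowest Atf4 value at both bright probe sets, and without it the difference at the first was -0.10. With all 3 probe sets averaged it was -0.09.

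Atf5, a related factor whose translation is controlled in the same manner, followed a like order. It measured 11.69, 10.95 and 11.24 in KO and 11.53, 11.63 and 11.77 in WT. KO 2 and KO 3 lay below all WT arrays, while KO 1 lay among them. The difference was -0.35 with a standard error of 0.20 and a 95% interval from -0.84 to 0.14 (limma adjusted p = 0.443). It was -0.18 without KO 2 and -0.55 without KO 1.

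Trib3, a pseudokinase induced by ATF4 and CHOP that feeds back on ATF4, had the widest range of the members at the probe sets used. It measured 6.79, 7.69 and 6.37 in KO and 6.50, 6.46 and 6.10 in WT at the probe set used (Entrez gene 228775). KO 2 stood 0.90 above the next array, and KO 3 lay among the WT arrays. The second probe set gave the same picture, at 6.48, 7.37 and 6.15 in KO and 6.35, 6.30 and 5.42 in WT. The range over the 6 arrays was 1.59, which 4.46% of the genes tested exceeded. The group means of 6.95 ± 0.68 and 6.36 ± 0.22 (log2, SD, n = 3 each) differed by 0.60, with a 95% interval from -0.26 to 1.46 (limma adjusted p = 0.456). Without KO 2 the difference was 0.23, and without KO 3 it was 0.89 (limma adjusted p = 0.242).

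The highest and lowest arrays of these genes were as follows. WT 3 had the highest value of Atf4, Atf5 and Ddit3 and the lowest of Trib3. KO 2 had the lowest value of Atf4 and Atf5 and the highest of Trib3, whereas Ddit3 was lowest on KO 3. The other arrays took different places from gene to gene.

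Chac1, which degrades glutathione and is a target of the ATF4 and CHOP branch, was the other member whose groups stood apart. It measured 6.72, 6.86 and 7.06 in KO and 6.62 on each WT array, with the WT values within 0.0052 of each other. All KO arrays lay above all WT arrays in 655 of the 10009 genes tested. The difference was 0.26 with a standard error of 0.10 and a 95% interval from 0.02 to 0.50. In limma the unadjusted p was 0.0396 and the adjusted p 0.328. An exact permutation gave p = 0.1. Chac1 had 1 probe set. Its difference was 0.17 without KO 3, the highest array. WT values that nearly coincide have hardly any measured spread and may lie at a lower limit of this probe set, so no fold is given.

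**Figure D2:**
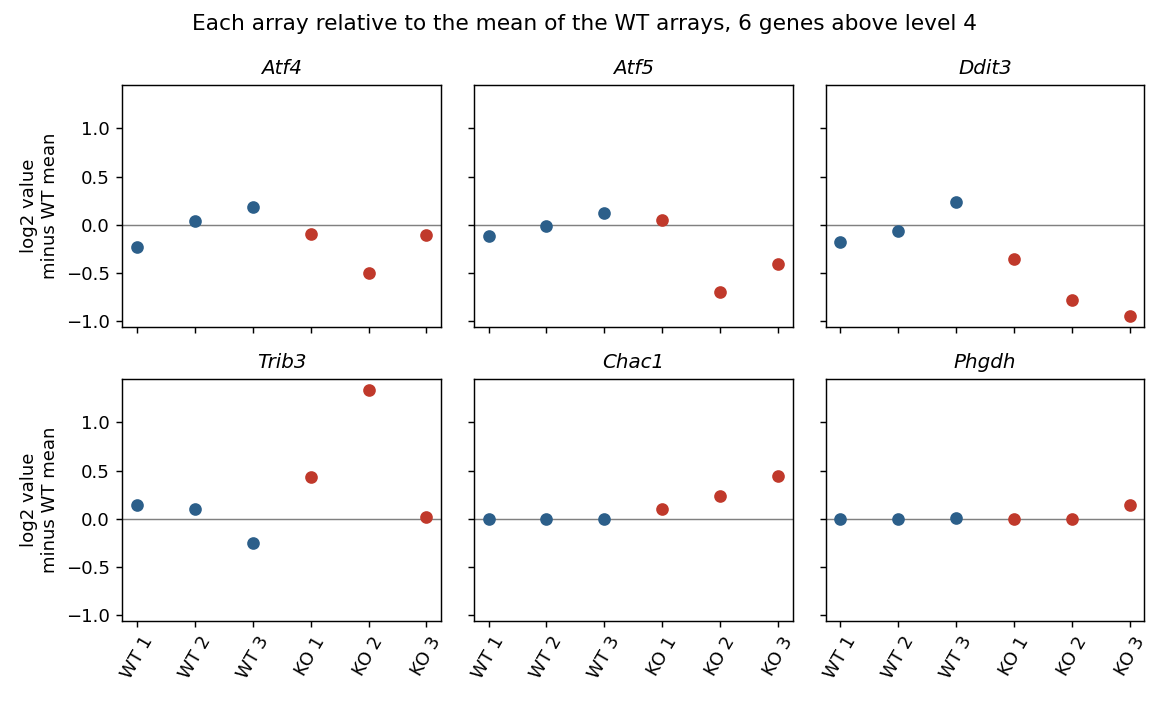
Log2 value of each array minus the mean of the 3 WT arrays (vertical axis, shared scale) for the 6 genes above level 4, with WT in blue and KO in red. All KO arrays are below 0 for Ddit3 and above 0 for Chac1, Trib3 is highest on KO 2, and the WT points of Chac1 and Phgdh nearly coincide.

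The genes of serine, one-carbon and asparagine synthesis were mostly near background. Phgdh, which starts serine synthesis from a glycolytic intermediate, measured 6.45, 6.45 and 6.60 in KO and 6.45, 6.45 and 6.46 in WT (Entrez gene 236539). Of its 6 values 4 were tied at the lowest, to within 0.005, and KO 3 alone stood away from the rest. Ties on at least 3 arrays occurred in 2.03% of the genes tested. The difference was 0.04 with a 95% interval from -0.12 to 0.21 (limma adjusted p = 0.76). The probe set carries the suffix by which the manufacturer marks probes that can match other transcripts, and 2 further probe sets that name Phgdh together with another gene were not used. The other 3 Phgdh probe sets stayed between 2.18 and 3.53.

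Psat1, the aminotransferase of the next step in serine synthesis, measured 3.51 on every KO array and 3.51 to 3.54 on the WT arrays. Its second probe set stayed between 2.19 and 2.36. Asns, which makes asparagine and is a classical ATF4 target, measured 3.01, 3.12 and 3.00 in KO and 3.01, 3.01 and 3.08 in WT. The second Asns probe set varied more, at 2.45, 3.64 and 2.23 in KO and 2.60, 2.60 and 3.48 in WT, with overlapping groups. Mthfd2, the mitochondrial folate enzyme, measured 2.18 on 5 of 6 arrays and 2.26 on WT 3, and 2.18 throughout at its second probe set.

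Fgf21, a hepatic hormone induced by ATF4 and by PPARalpha in fasting, measured 2.62 on all 6 arrays. No fold is given for these 4 genes because both groups lay below level 4 throughout. A difference in transcripts at these levels was not detectable with these values.

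**Figure D3:**
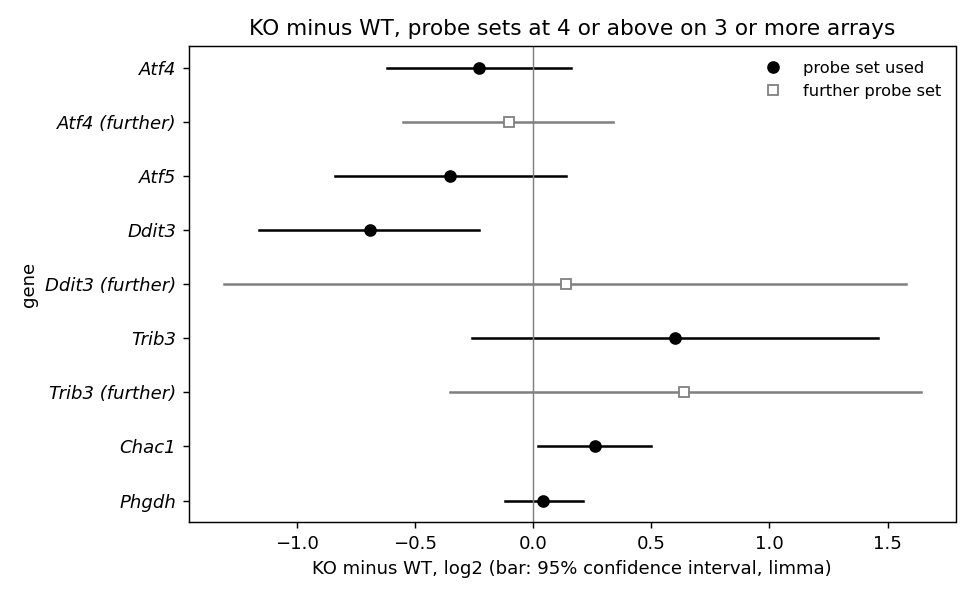
Difference KO minus WT (horizontal axis, log2) with its 95% limma interval for the 9 member probe sets that reached 4 on at least 3 arrays, filled circles for the probe set used and open squares for further ones. The intervals of Ddit3 and Chac1 do not include 0 before adjustment for the number of genes, and the further Ddit3 probe set, at 0.14, lies on the other side of 0.

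By a rule for likeness, the genes closest to Ddit3, the member with the largest absolute difference, were sought among the other 10008 genes tested. Predicted genes and clone names were skipped, so a skipped gene may lie nearer. The measure was the root-mean-square distance between profiles over the 6 arrays, each centred on its own mean. The 5 nearest that remained were Dzip3 at 0.091, Tbc1d24 at 0.129, Sox18 at 0.151, Gfer at 0.152 and Zfand2a at 0.159 (log2). The profile of Ddit3 itself had a root-mean-square size of 0.408, and the median distance of all genes from it was 0.418. The KO minus WT differences of the 5 genes ran from -0.73 for Sox18 to -0.44 for Zfand2a, and none passed in limma (adjusted p = 0.197 to 0.374). Differences near that of Ddit3 follow from the rule, which used the same arrays. Nearness over 6 arrays is a description of these mice.

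The pathway around the members was read from 9 lists, with 181 genes in all, of which 168 had a probe set and 151 passed the filter. Of these, 1 gene was called in limma, Lamtor2, which fell. By sign 85 of the 151, or 56.3%, were lower in KO, beside 58.4% of all genes. At an unadjusted p under 0.05 there were 6 higher and 15 lower, or 13.9% of the 151, beside 14.5% of all genes. The groups did not overlap for 38 genes, 25.2%, beside 20.5% of all genes. The median difference was -0.03. By list, the share whose groups did not overlap ran from 8.7% for TORC1 pathway inputs to 54.5% for ATF4 partner and related factors. The unadjusted share ran from 0% for the aminoacyl-tRNA synthetases and the ER chaperones to 36.4% for the same factors. It was 6.67% for the eIF2alpha list, 8.7% for TORC1 inputs and 11.1% for FGF21 receptors and PPARalpha targets. The list shares set beside all genes below are the highest of these. The genes that end a list's range were chosen after their values were seen.

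Upstream of ATF4, the list of eIF2alpha kinases, phosphatase cofactors and regulators had 15 genes past the filter, 6 higher and 9 lower, with 0 called and 1 at an unadjusted p under 0.05 in limma. The GCN2 gene Eif2ak4 measured 5.74, 5.80 and 5.77 in KO and 5.77, 5.93 and 5.62 in WT. PERK, encoded by Eif2ak3, was 8.29, 7.53 and 7.86 in KO and 7.41, 7.71 and 7.72 in WT; both kinases were chosen after their values were seen. Eif2b3, a subunit of the exchange factor that phosphorylated eIF2alpha inhibits, had the smallest p and lay at 8.25, 8.45 and 8.30 against 7.87, 7.98 and 8.14 (a difference of 0.34, limma adjusted p = 0.27). Impact, an inhibitor of GCN2, differed by -0.15, but by 0.30 at its second, dimmer probe set. The list's median was -0.03.

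Among ATF4 partner and related factors 8 of 11 lay lower in KO and the median was -0.21, with 0 called, and 1 higher and 3 lower at an unadjusted p under 0.05 in limma, or 36.4%, beside 14.5% of all genes. The groups stood apart for 6 of the 11, or 54.5%, beside 20.5% of all genes and 8.7% to 50% in the other lists. Of those 6, 5 had KO below WT, beside 1400 of all 10009. Jdp2, a repressor of the AP-1 family, measured 5.80, 5.19 and 5.87 in KO and 6.28, 6.76 and 6.55 in WT, a difference of -0.91 (limma adjusted p = 0.231). With its probe sets averaged, which brings in signal below the filter, the Jdp2 difference was -0.46. Cebpa, the C/EBP factor of hepatocytes, measured 12.83, 12.82 and 12.83 against 13.25, 12.95 and 13.22, a difference of -0.32 (limma adjusted p = 0.283). Jun was at -0.95 and Cebpb at 0.28, the ends of the range. Atf3, itself induced by ATF4, was chosen after its values were seen and lay low, at 4.35 to 4.45 in KO and 4.53 to 4.66 in WT. Macrophage, endothelial and stellate cell markers also had negative medians, -0.89, -0.39 and -0.39, and their part in this list was not tested. The stellate marker mean was highest on WT 2, the array with muscle transcripts.

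Amino acid transporters went both ways, 8 of 12 higher and 4 lower, with a median of 0.09, 0 called, and 1 in each direction at an unadjusted p under 0.05 in limma. Slc6a9, the glycine transporter GlyT1, measured 9.83, 9.17 and 9.44 in KO and 8.85, 8.85 and 9.02 in WT, a difference of 0.58 (limma adjusted p = 0.283). Its second probe set differed by 0.38. Slc1a4, a carrier of serine and alanine, measured 6.66, 7.25 and 7.33 against 7.97, 7.62 and 7.48, a difference of -0.61 (limma adjusted p = 0.32), and its other probe sets gave -0.44 and -0.89. In both genes the KO arrays lay on one side of the WT arrays at each of these probe sets. A further 7 transporters were set aside as too dim, among them the ATF4 target Slc7a11, the cystine importer, which stood at 2.18 on all arrays and was chosen after its values were seen.

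Cytosolic aminoacyl-tRNA synthetases, which charge tRNA and of which many respond to ATF4, were all above the filter where they had a probe set. Of 19 genes 6 were higher and 13 lower, with small differences from -0.24 for Vars to 0.14 for Iars and with a median of -0.04. None was called in limma, and 0 had an unadjusted p under 0.05. Rars and Kars had the smallest p, at -0.14 (limma adjusted p = 0.373) and -0.19 (limma adjusted p = 0.383).

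Other enzymes on a list around serine, glycine, one-carbon and proline synthesis were lower for 9 of 14, with a median of -0.15. The list also holds enzymes that use serine or glycine. Cbs, Cth, Gldc, Gcsh and Gnmt are among these, and all lay lower. Psph, Shmt1 and Shmt2, which can make serine or glycine, differed by 0.04, 0.16 and 0.14. Aldh18a1 and Pycrl, of proline synthesis, differed by -0.63 and -0.09. All of these names but Cbs were chosen after their values were seen. In limma 0 were called, and 4 lower and 0 higher had an unadjusted p under 0.05, or 28.6%, beside 14.5% of all genes and 10.1% as lower. Of these 4, Aldh18a1 reached level 4 on 1 KO array and 3 WT arrays. It passed the filter through the WT arrays, so its lower KO level counts for little here. The groups stood apart for 7 of the 14, beside 20.5% of all genes, and 6 of the 7, Aldh18a1 among them, had KO below WT. Cbs, which condenses serine with homocysteine, measured 11.79, 12.13 and 12.17 in KO and 12.47, 12.52 and 12.5 in WT, a difference of -0.47 (limma adjusted p = 0.231). A second probe set of Cbs differed by -0.42. Aldh1l1, a cytosolic folate enzyme, differed by -0.34 (limma adjusted p = 0.25) but by 0.30 at its second probe set, and by -0.019 with its probe sets averaged. Psph, the last enzyme of serine synthesis, measured 7.58, 7.65 and 7.68 against 7.45, 7.73 and 7.60, and was chosen after its values were seen.

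Other ATF4 and CHOP targets spread the widest. Of 21 genes 10 were higher and 11 lower, from -1.07 for Cdkn1a to 0.92 for Bbc3, with a median of -0.03. In limma 0 were called, and 2 higher and 4 lower had an unadjusted p under 0.05, or 28.6%, beside 14.5% of all genes. Cdkn1a, the cell cycle inhibitor p21 and better known as a p53 target, measured 4.0, 4.03 and 4.95 in KO and 5.29, 5.33 and 5.57 in WT (limma adjusted p = 0.243). Of its 16 alternatives it passed in 1, without KO 3, at -1.38 (limma adjusted p = 0.0267). In that setting 140 of the 10009 genes were called, against 17 with all arrays. Map1lc3b, which encodes the autophagosome protein LC3B, measured 13.12, 12.99 and 12.99 against 12.80, 12.77 and 12.59, a difference of 0.31 (limma adjusted p = 0.25), and its other probe sets at this level gave 0.14 and 0.17. Ddit4, the TORC1 inhibitor REDD1, was chosen after its values were seen. It measured 7.66, 7.58 and 8.89 in KO and 7.41, 6.87 and 7.21 in WT, a difference of 0.88 (limma adjusted p = 0.358).

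For the Fgf21 axis, receptors and PPARalpha targets had 7 higher and 11 lower of 18, with a median of -0.04, 0 called, and 1 in each direction at an unadjusted p under 0.05 in limma. Angptl4, a lipoprotein lipase inhibitor and PPARalpha target, measured 11.74, 11.78 and 11.73 in KO and 11.21, 11.26 and 11.26 in WT, a difference of 0.50 (limma adjusted p = 0.0655). Over the 17 alternatives the limma adjusted p of Angptl4 ran from 0.0399 to 0.288. It passed with a variance trend and without KO 3 and in none of the others. With all its probe sets averaged, which brings in signal below the filter, the difference was 0.27 (limma adjusted p = 0.185). Fgfr3 differed by -0.32, or by -0.16 with its probe sets averaged, which likewise brings in signal below the filter. Klb, the co-receptor of FGF21, measured 9.65, 9.89 and 10.11 against 10.33, 10.17 and 9.99. Pdk4 stood at 10.19 on WT 2, the array with muscle transcripts, and at 4.74 to 6.42 on the others. Klb and Pdk4 were chosen after their values were seen.

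ER chaperones and genes of the unfolded protein response, which share Ddit3 as an output, stayed between -0.25 for Atf6 and 0.35 for Dnajb9. Of 20 genes 9 were higher and 11 lower, with a median of -0.04, and 0 were called and 0 had an unadjusted p under 0.05 in limma. Atf6, a stress sensor of the endoplasmic reticulum, measured 9.46, 9.46 and 9.14 in KO and 9.62, 9.59 and 9.61 in WT (limma adjusted p = 0.345), but its other probe sets gave 0.03 and 0.27. Sel1l, of the ER degradation complex, differed by -0.18 at the probe set used. The other 4 gave 0.20, -0.14, 0.48 and 0.66. Where positive, all KO arrays lay above all WT arrays, with limma unadjusted p = 0.0249, 0.001 and 0.0378. None of the 4 was called (limma adjusted p = 0.156 to 0.517).

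TORC1 pathway inputs had 23 genes past the filter, 13 higher and 10 lower, with a median of 0.02. Lamtor2 was called, and 2 lower genes, Lamtor2 among them, had an unadjusted p under 0.05 in limma. Apart from Lamtor2, the differences ran from -0.32 for Tsc2, which inhibits TORC1 through Rheb, to 0.19 for Slc38a9, a lysosomal arginine sensor; Tsc2 was chosen after its values were seen.

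**Figure D4:**
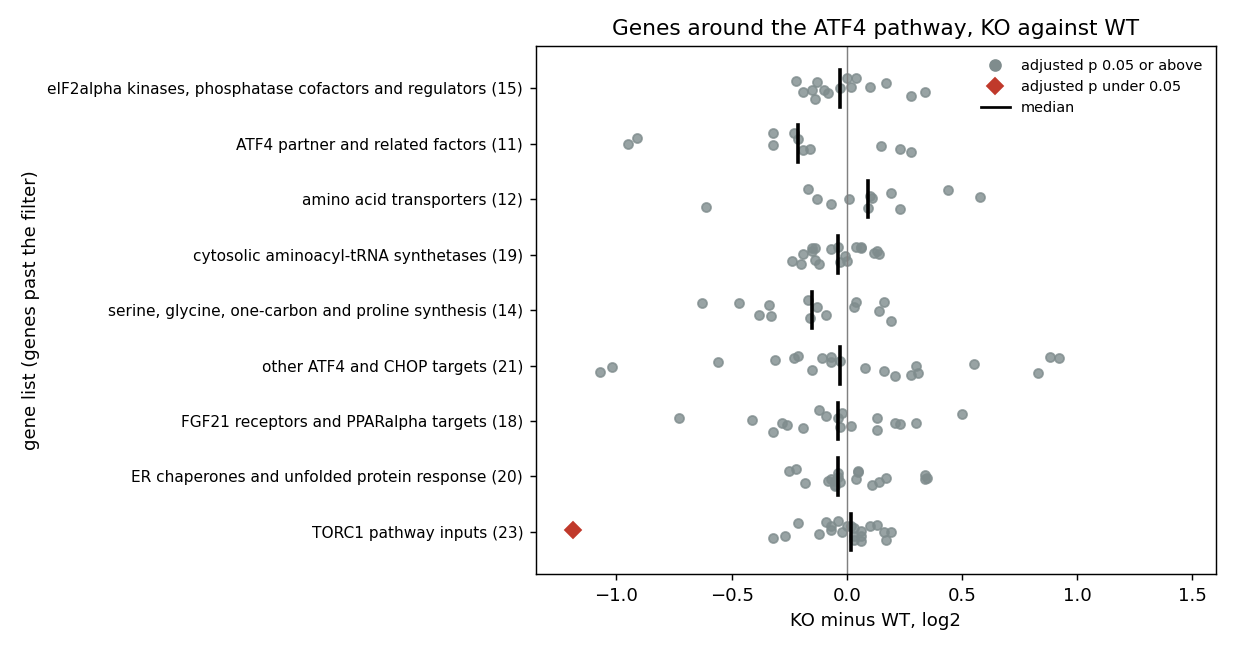
Difference KO minus WT (horizontal axis, log2) of each gene past the filter in the 9 lists around the ATF4 pathway, with the list's median as a bar and called genes as red diamonds. Lamtor2 at -1.19 is the called gene, and the medians lie between -0.21 and 0.09.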

How the data were processed

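The authors deposited log2 expression values per probe set, for which the submitters' processing notes name GCRMA 2.16.0 and R 2.9.1; the log2 scale was inferred from the values (2.185 to 16.327). GCRMA models background from probe sequence and normalises across arrays; its settings are not given in the sources used here. Probe sets the platform annotation pairs with 1 symbol were kept, and each gene was represented by its highest mean over all 6 arrays. Genes with at least 4 on at least 3 arrays were tested, leaving 10009, with 8184 set aside. Testing of KO against WT used limma 3.58.1 in R 4.3.3 (lmFit, eBayes, two-sided, no covariates), with Benjamini-Hochberg adjustment over all genes and a threshold of 0.05. Single values had exact two-sided permutation tests.

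The script was tested on simulated data. There it called 36% of the genes changed 1.5-fold, 68% at 2-fold, 98% at 4-fold and 96% at 8-fold, so many small changes were missed. The simulation changed 50 genes at each fold, whereas 17 genes were called in the data. More changed genes make the adjusted threshold easier to pass, so these shares may be too high for the data. Members and lists were chosen with earlier results of these data known. All members are named, with Lamtor2 and, from each list, called genes (up to 3) or the 2 smallest p, and 5 genes like Ddit3 in profile; other names are marked. Alternatives covered filter, probe sets, normalisation, floor at 4, variance trend, array weights, replicate block and arrays left out. Promoter sequences are from RefSeq. Figures used matplotlib 3.10.9.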

Additional observations from a re-analysis of the deposited data

How the results depend on the processing

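The number of members called in limma was 0 under all 17 alternatives, with 0 to 3 of them at an unadjusted p under 0.05. Atf4, Atf5, Trib3, Ddit3 and Chac1 kept the sign of their difference throughout. Phgdh, near 0, turned to -0.0051 without both KO 3 and WT 2, and ranged from -0.0034 to 0.07 with single arrays left out. When all probe sets of a gene were averaged, Impact turned to 0.05, Atf6 to 0.016 and Sel1l to 0.21. The number of genes called over the whole table was 17, but 3 with no filter, 10 with every probe set tested, 3 without both KO 3 and WT 2, and 1 to 140 with single arrays left out, the most without KO 3. Among related genes the count was 1, but 2 with a variance trend, 0 without both KO 3 and WT 2, and 0 to 3 with single arrays left out. In the related lists Lamtor2 was not called without KO 2, WT 1, WT 2 or WT 3. With the replicate number as a block, 0 genes were called over the table and 0 in the related lists (limma, 1235 and 16 at an unadjusted p under 0.05), and same-numbered arrays did not deviate together (correlations of -0.086, -0.079 and -0.141). The cause of these changes was not tested. Signals near background limit what can be said of Asns, Psat1, Mthfd2 and Fgf21.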
